A study of Mus musculus with 2 samples.

Results

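The let-7a, let-7c and let-7f microRNAs of the mouse each come from a pair of genes in separate places: Mirlet7a-1 and Mirlet7a-2, Mirlet7c-1 and Mirlet7c-2, and Mirlet7f-1 and Mirlet7f-2. These 6 genes were taken by their GENCODE M21 names from the 2202 microRNA genes in the count files. The naming rule used no measured value, though the loci were chosen with earlier results of these data known. All 6 were found and all 6 were detected, meaning that they reached a CPM of 2 in both libraries (reads scaled to a common sense microRNA total), as did 321 genes in all. The libraries hold RNA under 30 nt from the gastrocnemius, the large calf muscle, of adult male mice aged 8 to 10 months of the strain labelled 5xFAD/CAST. 5xFAD names a transgenic model of amyloid in the brain, CAST is a wild-derived inbred strain, and whether these animals carried the transgene is not in the labels. There were 2 libraries of this 1 group, numbered as biological replicates 1 and 2. They come from separate tissue samples with a shared donor record, and nothing says that these were separate animals, so differences between them may be technical. With 1 library against 1, the exact p-values given here are against counting error and not against a spread between replicates. No treatment, genotype or time was contrasted; the comparisons possible are between the loci of a pair and between the libraries.

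The let-7 family is known as a marker of differentiated tissue and was first described in the worm Caenorhabditis elegans, where it times development. A let-7 gene is transcribed as a long precursor from which Drosha cuts a hairpin and Dicer cuts the mature strands. The strand of the 5′ arm (5p) is loaded into Argonaute and pairs with messenger RNAs mainly through its seed, bases 2 to 8, and the strand of the 3′ arm (3p) is usually discarded. The RNA-binding protein Lin28 blocks this maturation in early and undifferentiated cells. Known targets of the family include Hmga2, Ras genes and Lin28 itself. In human cells, the precursors of most family members, those of let-7a-2, let-7c and let-7e aside, need an added uridine before Dicer cuts them well.

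The mature 5p strands are shown first, since both loci of a pair encode the same one. All sequences here are from the RefSeq table for GRCm38.p6, in which all 6 hairpins were found and were identical to the GENCODE transcripts. Mirlet7a-2 had no 5p entry of its own, and the let-7a-5p sequence was found in its hairpin. The seed is in capitals.

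let-7a-5p: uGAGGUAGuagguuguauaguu

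let-7c-5p: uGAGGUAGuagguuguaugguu

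let-7f-5p: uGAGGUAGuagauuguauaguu

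The 3 strands share 1 seed. Counting from 1 at the 5′ end, let-7a and let-7c differ by A19G, let-7a and let-7f by G12A, and let-7c and let-7f by G12A and G19A, with the base of the form named first given first. Each 5p sequence occurred exactly in both hairpins of its pair and in no other microRNA gene. The bases just beside it differ between the loci of a pair, as do other parts of the hairpins. They are shown here in capitals, 3 before and 4 after the 5p strand in lower case.

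Mirlet7a-1: GGAugagguaguagguuguauaguuUUAG

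Mirlet7a-2: GGUugagguaguagguuguauaguuUAGA

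Mirlet7c-1: GGUugagguaguagguuguaugguuUAGA

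Mirlet7c-2: GGGugagguaguagguuguaugguuUUGG

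Mirlet7f-1: GAGugagguaguagauuguauaguuGUGG

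Mirlet7f-2: GGAugagguaguagauuguauaguuUUAG

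Positions in these stretches count from 1 at the 5′ end, so that the 5p strand covers 4 to 25, and the base of locus 1 is given first. The let-7a loci differed by A3U, U27A, A28G and G29A. The let-7c loci differed by U3G, A27U and A29G. The let-7f loci differed by A2G, G3A, G26U and G28A. The first base that tells the loci apart after the 5p strand was therefore the second one in the let-7a and let-7c pairs and the first one in the let-7f pair. With 1 base of the hairpin added to its 3′ end, the 5p sequence still had 2 places for let-7a and let-7c, and 1 place for each let-7f locus. With 2 bases added, every locus had a sequence of its own. Across pairs, Mirlet7a-1 and Mirlet7f-2 have the same bases on both sides, as do Mirlet7a-2 and Mirlet7c-1, in each case on different chromosomes.

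The 3p strands differed more. The 3p strands of the let-7a loci differed at 6 of 21 compared bases, those of the let-7c loci at 5 of 22 and those of the let-7f loci at 4 of 21. The 3p sequence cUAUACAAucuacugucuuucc, with bases 2 to 8 in capitals, was shared by Mirlet7a-1 and Mirlet7c-2, which are not a pair. Each of the other 4 had a 3p sequence found in 1 gene only. For the let-7f pair, whose loci differed most in reads, these were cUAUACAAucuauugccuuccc for Mirlet7f-1 and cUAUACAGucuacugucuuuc for Mirlet7f-2. Their whole hairpins follow, with both arms in capitals.

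Mirlet7f-1: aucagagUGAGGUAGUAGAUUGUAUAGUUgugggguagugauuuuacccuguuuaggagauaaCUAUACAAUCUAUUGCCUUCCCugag

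Mirlet7f-2: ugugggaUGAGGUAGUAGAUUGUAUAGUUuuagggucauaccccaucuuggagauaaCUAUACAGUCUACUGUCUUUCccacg

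The 6 genes lie in 5 places of the genome (mm10). Mirlet7a-1 (ENSMUSG00000065421.3, chr13:48538179-48538272) and Mirlet7f-1 (ENSMUSG00000105621.1, chr13:48537829-48537917) lie on the minus strand, 262 bp apart, each within an exon of the lincRNA 6720427I07Rik. Mirlet7a-2 (ENSMUSG00000092770.1, chr9:41536716-41536811) is on the plus strand in an intron of the noncoding genes 3110039I08Rik and Gm49317. Mirlet7c-1 (ENSMUSG00000065557.3, chr16:77599657-77599750) is on the plus strand in an intron of Mir99ahg, the host gene of Mir99a. It also lies in an intron of the protein-coding gene Gm11146 on the opposite strand. Mirlet7c-2 (ENSMUSG00000065608.1, chr15:85706603-85706697) is on the plus strand within an exon of the noncoding gene Lncppara. Mirlet7f-2 (ENSMUSG00000065602.1, chrX:151912346-151912428) is on the plus strand in an intron of Huwe1, which encodes a ubiquitin ligase. Mirlet7f-1 also overlaps Gm24111, an annotated microRNA gene on the opposite strand. Gm24111 had 0 sense reads in both libraries, and its opposite-strand column held 291 and 164 reads, the same as the sense column of Mirlet7f-1.

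The values behind all that follows are sense reads per gene, and in the layout of these files a read that aligned to several places is in a total and in no gene. In replicate 1, 1157420 of 6119818 reads (18.91%) were sense reads of microRNA genes, and 3681109 (60.15%) aligned to several places. In replicate 2, the numbers were 1193393 (17.99%) and 4191519 (63.19%) of 6632802. Of the 9 skeletal muscle genes listed for the tissue check, 8 were detected, and the 9 held 3.87% and 3.731% of the sense reads, most of it in Mir206 at 32948.3 and 32931.3 CPM and much of the rest in Mir486 at 5152.0 and 3706.2 CPM. The Mir1a and Mir133 loci of that list, which also have near-identical copies, had between 0 and 60 reads. The endothelial Mir126a stood at 80768.4 and 137673.0 CPM and the smooth muscle Mir143 at 48618.5 and 40817.2 CPM, both above Mir206. Smooth muscle Mir145a stood at 2180.7 and 1323.1 CPM, and leukocyte Mir150 and Mir155 at 832.9 to 1697.7 CPM. Erythroid Mir451a and Mir144 and liver Mir122 were also detected, at 7.776 to 155.5 CPM. The neuronal Mir124a loci had 0 reads. Mir124a has 3 loci, whose shared reads would be in no gene, so that 0 gives no limit on its level.

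The 6 loci held few of the family's reads, and Mirlet7f-2 held most of those. Together they had 8994 reads in replicate 1, which is 0.7771% of the sense reads (95% interval 0.7612 to 0.7932), and 6779 in replicate 2, or 0.568% (0.5546 to 0.5817). These and all other intervals are exact and span counting error alone. Those of odds ratios are conditional ones from the 2 by 2 counts, and all others are binomial (Clopper-Pearson). Amplified reads that carry no molecular identifiers may be copies of 1 molecule, so the intervals may be too narrow. The other 6 family genes, which are the only gene of their mature form, had 255511 and 195326 reads, so the 6 duplicated loci held 3.4% and 3.354% of the reads of all 12 family genes. For each read at the 6 loci, 409.3 reads in replicate 1 and 618.3 in replicate 2 aligned to several places. How many of them were let-7 reads was not tested, since the files hold no read sequences; the totals of the mature let-7a, let-7c and let-7f forms are therefore not given by these counts.

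Mirlet7f-2 had 6904 reads in replicate 1 and 5589 in replicate 2, or 5965.0 and 4683.3 CPM. That was 76.76% (75.88 to 77.63) and 82.45% (81.52 to 83.34) of the reads of the 6 loci. Its mean of 5324.1 ± 906.3 CPM (SD, n = 2) was the highest of the 6 loci. The next locus, Mirlet7c-2, had 782 and 455 reads, or 675.6 and 381.3 CPM, with a mean of 528.5 ± 208.2 CPM. Mirlet7c-1 had 387 and 232 reads, or 334.4 and 194.4 CPM, with a mean of 264.4 ± 98.97 CPM. Replicate 1 was the higher library at all 3 of these loci.

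Mirlet7a-1 had 371 and 171 reads, or 320.5 and 143.3 CPM, with a mean of 231.9 ± 125.3 CPM. Mirlet7f-1 had 291 and 164 reads, or 251.4 and 137.4 CPM, with a mean of 194.4 ± 80.61 CPM. Mirlet7a-2 had 259 and 168 reads, or 223.8 and 140.8 CPM, with a mean of 182.3 ± 58.69 CPM. Replicate 1 was again the higher library at each locus, and the 3 loci overlapped across the libraries. The opposite-strand column held 0 reads at all 6 loci in both libraries. That column also counts sense reads of genes on the other strand, as at Gm24111, so this 0 is no measure of background. The limit set by a count of 0, taken as 3 counts of the sense total, is 2.592 CPM for replicate 1 and 2.514 CPM for replicate 2.

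**Figure D1:**
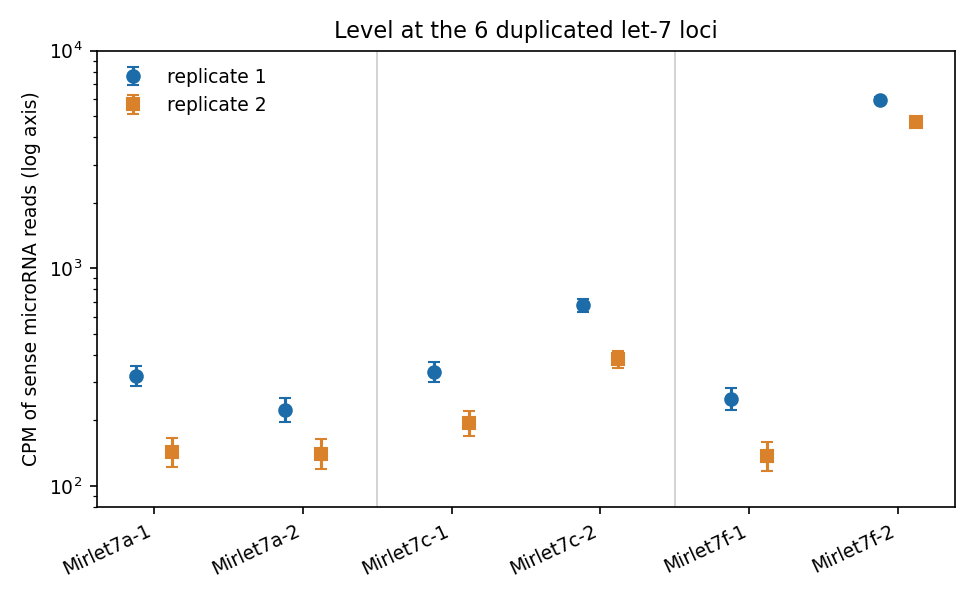
CPM of sense microRNA reads (log axis) at the 6 loci, with the exact 95% interval of each library's point; vertical lines part the pairs. Mirlet7f-2 stands at 5965.0 and 4683.3 CPM, and the other 5 loci lie between 137.4 and 675.6 CPM.

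Levels of different genes were ranked per length, as CPM per kb of annotated hairpin, which runs from 83 to 96 nt. Reads of RNA under 30 nt need not scale with that length. Mirlet7f-2 stood highest at 64146.2 CPM per kb, followed by Mirlet7c-2 at 5562.7, an 11.53-fold step with no overlap between the libraries. Mirlet7c-2 stood 1.978-fold above Mirlet7c-1, at 2812.6 CPM per kb, again with no overlap. The last 3 steps, to Mirlet7a-1 at 2467.2, Mirlet7f-1 at 2184.5 and Mirlet7a-2 at 1898.7 CPM per kb, were 1.14-fold, 1.129-fold and 1.151-fold. In each of these the libraries of the neighbours overlapped, so their order was not resolved.

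Within each pair the split of reads between the loci needs no scaling between libraries. It covers only reads assigned to 1 locus, as the 22-base 5p sequence has 2 places. With 1 base added, each let-7f locus has 1 place and the let-7a and let-7c loci still have 2. The part of this in the splits was not tested. The let-7f pair was the most unequal of the 3, with Mirlet7f-2 having 23.73 times the reads of Mirlet7f-1 in replicate 1 and 34.08 times in replicate 2. Mirlet7f-1 held 4.044% (3.601 to 4.526) and 2.851% (2.436 to 3.314) of the pair's reads. Per base of annotated hairpin its share was 3.782% and 2.664%. Mirlet7f-2 was the larger locus in both libraries and the interval of each stayed far from an even split.

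In the let-7c pair, Mirlet7c-2 had 2.021 times the reads of Mirlet7c-1 in replicate 1 and 1.961 times in replicate 2. Mirlet7c-1 held 33.11% (30.41 to 35.89) and 33.77% (30.24 to 37.44) of the pair's reads, and 33.34% and 34.01% per base of hairpin. Both intervals lay below 50%, and each library's share was inside the other's interval.

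In the let-7a pair, Mirlet7a-1 held 58.89% (54.93 to 62.76) of the reads in replicate 1 and 50.44% (44.99 to 55.89) in replicate 2, or 59.4% and 50.97% per base of hairpin. Mirlet7a-2 had 0.6981 and 0.9825 times the reads of Mirlet7a-1. Mirlet7a-1 had more reads in both libraries; the interval of replicate 1 lay above an even split and that of replicate 2 included it.

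These pairs can be set beside the other duplicated microRNAs of the annotation. The files hold 43 names with exactly 2 numbered loci, and 21 of these pairs had 10 or more reads in each library. Over the 21, the share of the larger locus had a median of 83.4%, and over the 18 that are not let-7 pairs a median of 86.18% with a range of 61.23% to 100%. The let-7f pair, at a mean of 96.55%, was the 5th most unequal of the 21. The let-7c pair, at 66.56%, was 16th, and the let-7a pair, at 54.67%, was the most even of all 21. These ranks are a description, and no test of the let-7 pairs against the others was made.

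Whether the split differed between the libraries was tested for all 21 pairs with Fisher's exact test, two-sided, with Benjamini-Hochberg adjustment over the pairs; 3 of 21 (14.3%) passed at 0.05. The let-7f pair was among them, with odds of locus 1 against locus 2 in replicate 2 at 0.6962 of those in replicate 1 (95% interval 0.5695 to 0.8488) and an adjusted p of 0.002675. The let-7a pair had an odds ratio of 0.7108 (0.5401 to 0.9352) and an adjusted p of 0.06376 by the same exact test, which did not pass. With only pairs of 50 or more reads in each library, the adjusted p of the let-7a pair was 0.04554, which would pass. The let-7c pair had an odds ratio of 1.03 (0.8392 to 1.264) and an adjusted p of 1.0. The other pairs that passed were Mir24 and Mir26a. This test compares 2 libraries of 1 group and not conditions.

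**Figure D2:**
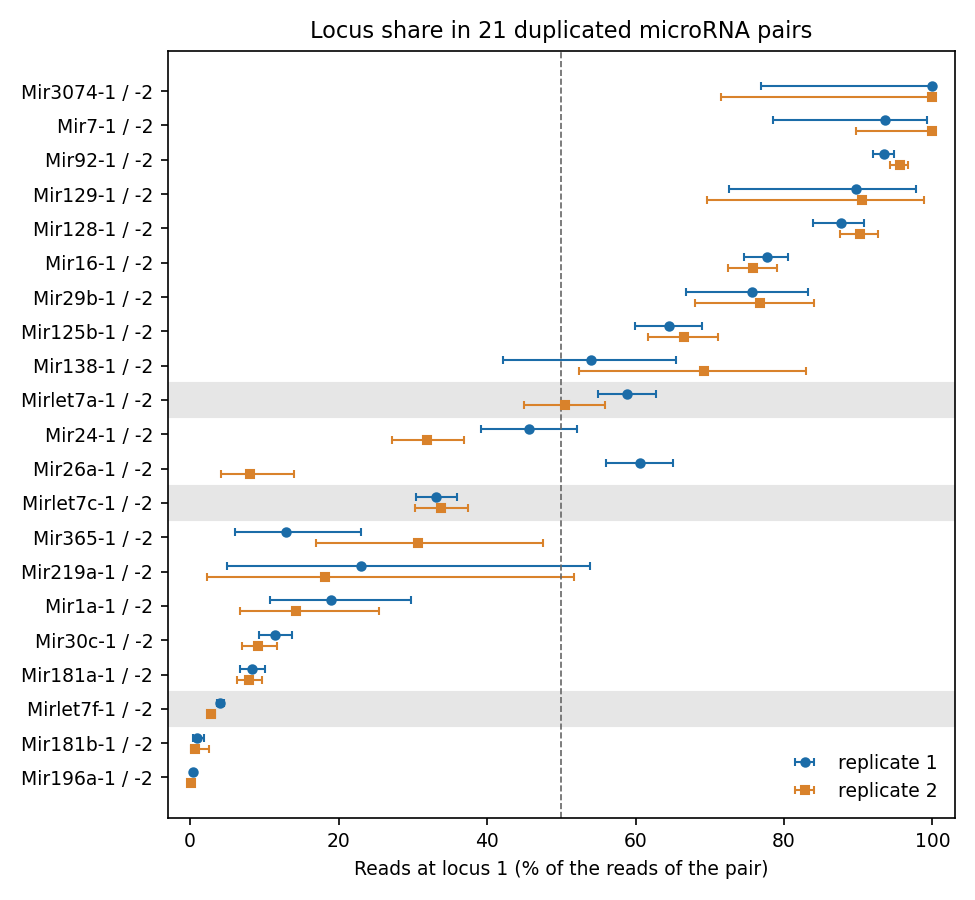
Share of a pair's reads at the locus numbered 1 (%), for the 21 duplicated microRNA pairs with enough reads, as points for each library with their exact 95% intervals; the let-7 pairs are shaded and the dashed line marks 50%. Mirlet7f-1 lies at 4.044% and 2.851%, Mirlet7c-1 at 33.11% and 33.77%, and Mirlet7a-1 at 58.89% and 50.44%.

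How many stretches of a hairpin could be assigned to its locus was counted from the sequences alone. No genome of the files' build was used here, so a place means a place in any of the 2202 annotated microRNA genes on either strand, and places elsewhere in the genome are not counted. At a length of 22 bases, the length of the 5p strands, 66 of the 73 windows of Mirlet7a-1 had 1 place, as did 73 of 75 in Mirlet7a-2, 71 of 73 in Mirlet7c-1 and 67 of 74 in Mirlet7c-2. The counts were 67 of 68 in Mirlet7f-1 and 61 of 62 in Mirlet7f-2. These windows are counted evenly along a hairpin, while the counts do not show where on it the reads lie. Whether separable sequence bears on the reads of each locus was therefore not tested.

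The windows with 2 places were the one that starts at the 5p strand in all 6 loci, the next one in the 4 let-7a and let-7c loci, and also those over the 3p strand in Mirlet7a-1 and Mirlet7c-2, which share it. When places within 1 mismatch also counted, 40 windows of Mirlet7a-1 still had 1 place, 58 of Mirlet7a-2, 56 of Mirlet7c-1, 56 of Mirlet7c-2, 61 of Mirlet7f-1 and 33 of Mirlet7f-2. Mirlet7f-2 had the fewest by this count. In the 6 single-locus family genes every 22-base window had 1 exact place. Window length mattered most for Mirlet7a-1, where 56 of 77 windows of 18 bases had 1 place, against 68 of 71 of 24 bases.

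**Figure D3:**
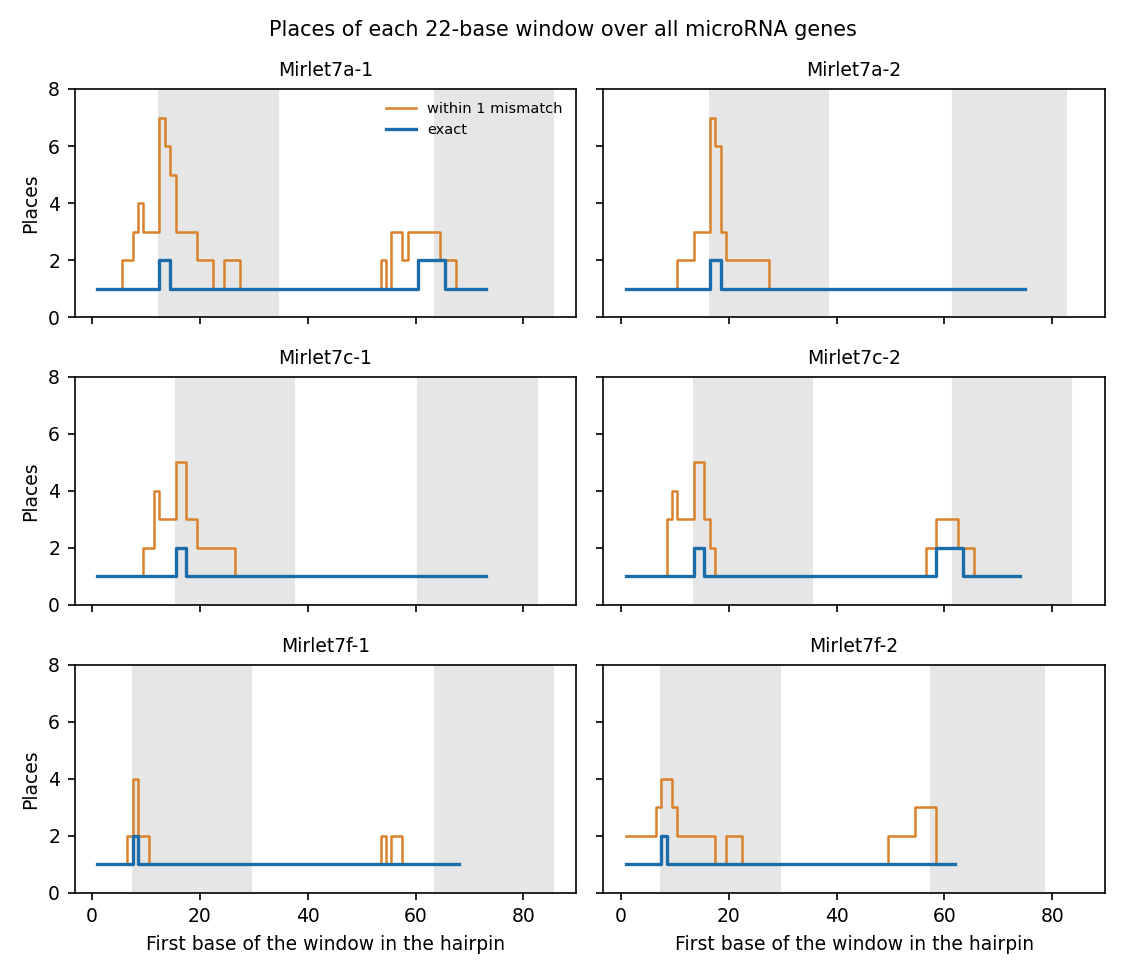
Number of places of each 22-base window over the annotated microRNA genes (vertical axis), exact in blue and within 1 mismatch in orange, by the window's first base in the hairpin (horizontal axis, in bases), for each of the 6 loci; grey bands are the 5p and 3p arms. The exact count rises to 2 at the start of the 5p arm in all 6 loci and at the 3p arm of Mirlet7a-1 and Mirlet7c-2.

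The loci were then compared between the libraries after TMM scaling, with a two-sided exact binomial test over all 321 detected genes and Benjamini-Hochberg adjustment. Of all genes tested, 37.4% passed at 0.05 in either direction and 18.7% were lower in replicate 2. Of the 6 loci, 5 were lower in replicate 2 and Mirlet7f-2 did not pass. Of the 6 single-locus family genes, 3 were lower, 2 were higher and 1 did not pass. The median log2 ratio of replicate 2 over replicate 1 was -0.50 over the 6 loci, -0.06 over the 6 single-locus family genes and -0.01 over all 321 genes. The lowest was -0.956 among the single-locus genes, at Mirlet7d, and -0.851 among the 6 loci, at Mirlet7a-1. In whole tissue, fewer cells of a type and less RNA per cell cannot be told apart.

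Mirlet7a-1 differed most of the 6, with a ratio of 0.5529 (95% interval 0.4585 to 0.6644) and an adjusted p of 2.491e-10 by the exact binomial test. The ratio was 0.676 (0.5548 to 0.8214) for Mirlet7f-1, 0.6979 (0.6204 to 0.7844) for Mirlet7c-2 and 0.7191 (0.6084 to 0.8483) for Mirlet7c-1, with adjusted p of 1.902e-04, 4.190e-09 and 2.345e-04 in the same test. Mirlet7a-2 had a ratio of 0.778 (0.6369 to 0.9484) and an adjusted p of 0.03117. It no longer passed with no filter on low counts (exact binomial adjusted p 0.05433) or with the counts of both strands (0.07039). Mirlet7f-2 had a ratio of 0.971 (0.9372 to 1.006) and an adjusted p of 0.2112 by the exact binomial test, and it passed, lower in replicate 2, under scaling by total counts, a setting that shifted the median log2 ratio of all genes by -0.29.

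The binomial test allows for counting error alone. With the edgeR exact test at a set dispersion of 0.01, 1 of the 6 loci passed, Mirlet7a-1, with an adjusted p of 0.004569. At the common dispersion of 0.1141 estimated from the 2 libraries, none of the 6 passed, with 5 of 321 genes passing in all and 11 at an unadjusted p under 0.05. That estimate already counts the difference between these libraries as spread, so few genes could pass and no conclusion is drawn from it. Because they did not pass at the set dispersion of 0.01, the calls at the other 4 loci that passed the binomial test rest on counting error alone. The call at Mirlet7a-1 rests on a spread no larger than the set one.

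Each locus has a neighbour within 10 kb on the same strand, as let-7 genes often lie in clusters that are transcribed together. Mirlet7a-1 and Mirlet7f-1 lie 2065 and 1715 bp from Mirlet7d, which had 54797 and 23553 reads and a ratio of 0.5156 (0.5077 to 0.5235). All 3 genes of that cluster were lower in replicate 2, and the intervals of Mirlet7a-1 and Mirlet7d overlapped while that of Mirlet7f-1 lay above that of Mirlet7d. Mirlet7a-2 lies 5212 bp from Mir100, of the miR-99 family, which had 27066 and 20575 reads and a ratio of 0.9118 (0.8954 to 0.9285), inside the interval of Mirlet7a-2.

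Mirlet7c-1 lies 657 bp from Mir99a, which had 57659 and 45732 reads and a ratio of 0.9514 (0.9397 to 0.9631). Mirlet7c-2 lies 622 bp from Mirlet7b, a single-locus family member, with 54268 and 40091 reads and a ratio of 0.8861 (0.8747 to 0.8977). Mirlet7f-2 lies 786 bp from Mir98, a member of the same family by its seed, with 2988 and 2994 reads and a ratio of 1.202 (1.142 to 1.265). At these 3 places the duplicated locus had the lower ratio, and its interval did not overlap that of the neighbour. All 5 neighbours named here passed the exact binomial test, Mir98 as higher and the other 4 as lower in replicate 2.

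**Figure D4:**
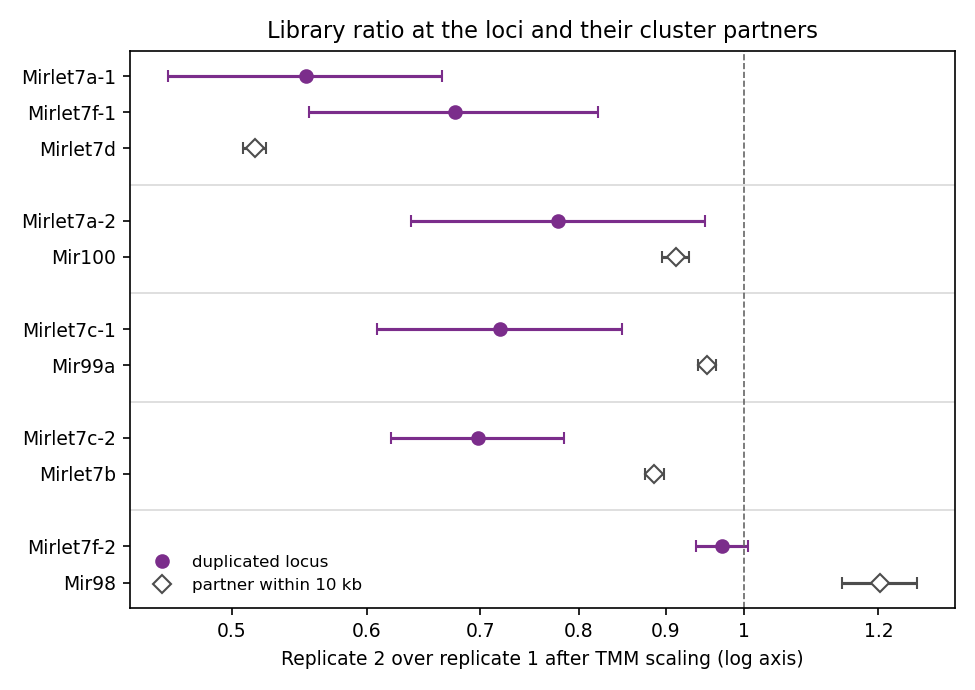
Ratio of replicate 2 over replicate 1 after TMM scaling (log axis), with its exact 95% interval, for the 6 duplicated loci (filled circles) and their neighbours within 10 kb on the same strand (open diamonds), grouped by cluster; the dashed line marks a ratio of 1. The loci run from 0.5529 at Mirlet7a-1 to 0.971 at Mirlet7f-2, and the neighbours from 0.5156 at Mirlet7d to 1.202 at Mir98.

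Most neighbours had far more reads than the duplicated locus beside them. The 22-base 5p sequence of each duplicated locus has 2 places, and a read that aligned to several places is in no gene. The levels below therefore cover only reads assigned to 1 gene. How much of each fold comes from this was not tested. In CPM per kb, Mirlet7d stood 132.0-fold above Mirlet7a-1 and 149.1-fold above Mirlet7f-1. Mir100 stood 133.7-fold above Mirlet7a-2, Mir99a 241.1-fold above Mirlet7c-1 and Mirlet7b 85.11-fold above Mirlet7c-2. In mean CPM, without division by length, these folds were 144.6, 172.5, 111.4, 166.7 and 76.15 in the same order. At the Huwe1 locus the order was the other way, with Mir98 at 0.3674 of the level of Mirlet7f-2 (0.4781 in mean CPM). Mirlet7f-2 was thus the higher gene of its cluster, which held for none of the other 5 loci. Of the 6 single-locus family genes, Mir98 at 23566.7 and Mirlet7e at 40305.9 CPM per kb stood below Mirlet7f-2 at 64146.2. Mirlet7d at 325632.3, Mirlet7b at 473418.7, Mirlet7i at 583252.3 and Mirlet7g at 710967.6 CPM per kb stood above it. The other 5 duplicated loci, at 5562.7 CPM per kb or less, lay below all 6.

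For each locus the 2 detected genes nearest in level over the 2 libraries were found by the distance in log2(CPM + 1). Mirlet7c-1 was nearest to Mir342 (distance 0.05) and then Mir351 (0.26), and Mirlet7f-1 to Mir1981 (0.06) and then Mirlet7a-2 (0.17). Mirlet7a-2 was nearest to Mir574 and Mir30b (both 0.12), and Mirlet7a-1 to Mir664 (0.19) and Mir132 (0.22). Mirlet7c-2 was nearest to Mir1249 (0.27) and Mir411 (0.29), and Mirlet7f-2 to Mir196b (0.18) and Mir191 (0.20). With 2 libraries these distances describe likeness in level only.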

How the data were processed

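The deposited values are raw counts of reads, with 3 unnamed columns per microRNA gene: both strands, sense and opposite strand. They refer to mm10 and GENCODE M21 per the text deposited with them, while the aligner is not given in the sources used here. Each file opens with 4 lines of totals, as STAR gene counts do. Those lines, which held most reads (the several-places class was 60.15% and 63.19%), stayed out of library sizes and tests.

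Sense counts were divided by the sense total (CPM). TMM factors of 1.11 and 0.899 came from edgeR 4.0.16 in R 4.3.3, and log2 ratios had a pseudocount of 1 CPM. With 1 group there are no conditions to test, and the edgeR quasi-likelihood test could not be fitted to 1 library against 1. The binomial test of the libraries was therefore used. It was checked on simulated counts with counting error alone, so the check does not cover spread beyond that. Shares used Fisher's exact test. Python 3.11.15 with scipy 1.17.1 was used. Sequences came from RefSeq (GRCm38.p6), and windows were searched among annotated microRNA genes.

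Alternatives were DESeq2 1.42.0 size factors, total counts, other filters, another pseudocount, the column of both strands, other denominators, division by hairpin length, edgeR exact tests, a neighbour distance of 100 kb, and leaving out each replicate. Genes named were the 6 loci, the single-locus family genes, same-strand microRNA genes within 10 kb, and the 2 genes nearest each locus in level. Mir24, Mir26a, Mir219a, Mir3074 and Gm24111 were named after their values were seen. Mir206, Mir486, Mir1a, Mir133, Mir126a, Mir143, Mir145a, Mir150, Mir155, Mir451a, Mir144, Mir122 and Mir124a come from the tissue marker list. The loci, lists and tests were chosen with earlier results of these data known.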

Additional observations from a re-analysis of the deposited data

How the results depend on the processing

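Most shares and test results kept their direction and side of the threshold under the alternatives, and none reversed. The CPM levels moved with the denominator. The mean of Mirlet7f-2 was 5324.1 CPM over the sense total, 7562.7 with both strands and 985.4 over all reads. The number of genes differing between the libraries, 120 of 321 by the exact binomial test, fell to 53 under edgeR's exact test with dispersion 0.01. It fell to 5 with the common dispersion, which already counts the difference between these libraries as spread. Both edgeR tests allow for spread beyond counting error. It was 149 of 321 with total counts only (35 higher and 114 lower in replicate 2, against 60 and 60). With DESeq2 size factors it was 118 of 321. Other settings changed the number of genes tested. Without a filter 118 of 569 passed, with a filter of 10 CPM 110 of 232, and with both strands 110 of 328. The column of both strands gave Mirlet7f-1 a count of 0, as its reads also overlap Gm24111 on the opposite strand, so the share of Mirlet7f-1 in its pair became 0 and the let-7f pair no longer differed between the libraries. In that column Mir24, Mir1a, Mir219a and Mir3074 fell below the read minimum, so that 1 pair of 17 tested, Mir26a, differed in place of 3 of 21; the cause for those 4 pairs was not tested. The other 5 loci kept their counts. Division by hairpin length left the order of the 6 loci as it was. A neighbour distance of 100 kb gave 8 neighbours in place of 5. No paired analysis was possible because there is only 1 group. Depth limits the let-7a pair most: its 339 reads in replicate 2 leave an interval of 44.99% to 55.89%.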
